A study of Mus musculus with 32 samples.

Results

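Genes of tumour macrophages and of the Csf1 receptor axis were followed through 4 mouse models of high-grade serous ovarian carcinoma and through the normal ovary and oviduct. The set held 10 genes of the 55450 in the count table, taken by symbol: Adgre1, C1qa, C1qb, C1qc, Cd68, Csf1, Csf1r, Mrc1, Trem2 and Spp1. Expression was measured by RNA sequencing of whole tissue in 32 libraries of female mice, in 10 groups. Tumours were harvested at endpoint, and the ages of the animals are not given in the sources used here.

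In the OSE-BPR model, FVB mice carrying Brca1 fl/fl, Trp53 fl/fl and K18GT121 Tg/+ received adenovirus with Cre under the ovarian bursa, which targets the ovarian surface epithelium. K18GT121 is the transgene through which Rb was inhibited. In the Ad-BPR model, C57Bl/6 mice of the same genotype received adeno-Cre into the oviduct. In the Pax8-BPR model, C57Bl/6 mice with the same 3 alleles also carried Pax8-CreERT2 Tg/+, which drives Cre in secretory cells of the oviduct after tamoxifen. The Ovgp1-BPR mice, also C57Bl/6, were labelled with Trp53 KozR172H ki/+ in place of the floxed allele, beside Brca1 fl/fl and K18GT121 Tg/+, and with Ovgp1-CreERT2 Tg/+, again with tamoxifen and oviductal secretory cells. The series' own design text gives this model a mutant Trp53 but lists Trp53 fl/fl among its alleles, and the sample labels were followed. Each model had primary tumours of the engineered mice (GEMM) and allografts, which are transplanted tumours. There were 3 GEMM tumours and 5 allografts of OSE-BPR, 2 and 4 of Ad-BPR, 4 and 2 of Pax8-BPR, and 3 and 3 of Ovgp1-BPR. Normal ovary and normal oviduct came from the same 3 wild-type C57Bl/6 mice. Every tumour group carried loss of Brca1, altered Trp53 and inhibition of Rb, and the OSE-BPR model alone was on FVB, so strain and cell of origin cannot be told apart there. The labels do not say which tumours gave the allografts. Allografts may share a source, and p-values then measure the spread between these samples only.

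Macrophages depend on the receptor tyrosine kinase encoded by Csf1r, which has a pair of ligands, Csf1 and Il34. Adgre1 encodes F4/80 and Cd68 a lysosomal glycoprotein, both used to mark macrophages. C1qa, C1qb and C1qc encode the 3 chains of complement C1q, made largely by macrophages in tissue. Mrc1, the mannose receptor, is abundant on many resident macrophages, and Trem2, a lipid receptor that signals through Tyrobp, marks lipid-laden macrophages in tumours. Spp1 encodes osteopontin, a secreted ligand of Cd44 and of integrins. It is made by some tumour macrophages but also by epithelial and tumour cells.

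Library totals ran from 13987123 to 20514825 counts, and the median was 17426862 counts. Gene-level counts do not show the deletion of floxed exons, and the targeted genes were not checked here. All 10 genes had counts in all 32 libraries, and the lowest were 27 counts of Spp1 in oviduct 2 and 34 of Trem2 in OSE-BPR GEMM 3. OSE-BPR GEMM 3 was the lowest of the 32 libraries for the 9 genes other than Spp1. Markers of luteal and other steroid-making cells summed to 11560 to 13350 CPM (counts relative to the library's total, scaled with TMM factors over all libraries) in the ovaries, 1451 in oviduct 1, 711 in oviduct 3 and 44.0 in oviduct 2. Oviducts 1 and 3 thus also carried ovarian transcripts. Results of the 10 genes against oviduct are given without them where the call or the size moved. Other named genes, markers and lists were not followed in those runs, so their results against oviduct rest on all 3 oviducts. The 6 epithelial markers summed to 2248 CPM in Ovgp1-BPR GEMM 1 and 3651 in Ovgp1-BPR allograft 3, against 574 to 1004 in the other 4 Ovgp1-BPR tumours, so these libraries too stood apart. In bulk tissue, fewer cells of a type and less RNA per cell cannot be told apart.

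The C1q genes lie side by side on the minus strand of chromosome 4 (GRCm38, GENCODE M21). C1qb spans bases 136880129 to 136886187, C1qc 136889804 to 136893065 and C1qa 136895917 to 136898803, so that the 3 genes fill 18.7 kb. The other genes lie apart: Csf1 on chromosome 3 (107741048 to 107760469, minus strand), Spp1 on chromosome 5 (104435118 to 104441050, plus strand), Cd68 on chromosome 11 (69664213 to 69666153, minus strand) and Mrc1 on chromosome 2 (14229392 to 14332057, plus strand). Adgre1 (57358691 to 57483527) and Trem2 (48346401 to 48354147) are both on the plus strand of chromosome 17. All 10 are protein-coding genes. Promoter windows from RefSeq (GRCm38.p6) ran from 250 bases before to 50 bases after a start of transcription. They were searched for 7 of the 10 genes, and not for Adgre1, C1qa and Csf1r. The windows of C1qb and C1qc are shown because these neighbours moved together across the libraries, and those of Csf1, the ligand, and Spp1, the gene of widest range, for comparison. Each is given 5′ to 3′ on the gene's own strand, in lower case, with matches on either strand to GAGGAA, the core bound by the myeloid factor PU.1, in capitals.
C1qb, chr4:136886151-136886450, minus strand: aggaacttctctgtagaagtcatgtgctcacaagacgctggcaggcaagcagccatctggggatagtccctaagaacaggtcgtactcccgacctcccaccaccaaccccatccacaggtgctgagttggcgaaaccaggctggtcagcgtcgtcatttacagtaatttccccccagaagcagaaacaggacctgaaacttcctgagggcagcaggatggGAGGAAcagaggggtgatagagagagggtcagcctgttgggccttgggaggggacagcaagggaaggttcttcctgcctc
C1qc, chr4:136892865-136893164, minus strand: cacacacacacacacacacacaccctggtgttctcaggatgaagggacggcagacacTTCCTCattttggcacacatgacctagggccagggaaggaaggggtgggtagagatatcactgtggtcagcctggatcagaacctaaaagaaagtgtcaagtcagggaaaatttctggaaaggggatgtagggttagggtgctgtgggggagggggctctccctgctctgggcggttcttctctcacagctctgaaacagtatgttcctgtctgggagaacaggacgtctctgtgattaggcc
Csf1, chr3:107760420-107760719, minus strand: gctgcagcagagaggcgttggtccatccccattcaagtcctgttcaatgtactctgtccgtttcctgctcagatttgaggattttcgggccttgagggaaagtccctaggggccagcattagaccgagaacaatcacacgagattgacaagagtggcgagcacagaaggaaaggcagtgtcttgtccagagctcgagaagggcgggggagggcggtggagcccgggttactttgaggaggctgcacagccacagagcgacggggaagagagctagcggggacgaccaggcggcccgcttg
Spp1, chr5:104434861-104435160, plus strand: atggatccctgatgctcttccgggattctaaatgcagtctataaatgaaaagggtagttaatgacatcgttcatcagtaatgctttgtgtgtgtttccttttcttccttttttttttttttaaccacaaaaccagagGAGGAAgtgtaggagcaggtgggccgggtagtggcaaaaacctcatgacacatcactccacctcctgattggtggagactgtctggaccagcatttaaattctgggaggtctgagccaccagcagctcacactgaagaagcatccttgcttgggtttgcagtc
The GAGGAA core, searched on both strands, was in windows of 6 of the 7 genes (C1qb, C1qc, Cd68, Mrc1, Spp1 and Trem2, but not Csf1). It was also in 28.3% of the 32851 mouse promoter windows of this length. The letters TGANTCA of the AP-1 site were in the windows of Cd68 and Trem2 and in 7.8% of all windows. The letters TCANGTG, bound by MiT/TFE factors, were in those of C1qb and C1qc and in 14.3% of all windows. Spp1 has a second window, which holds no match to these motifs. A match is a description of the letters and not a measured site.

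The levels of C1qa, C1qb and C1qc moved together across the libraries, and their group medians were highest in the Pax8-BPR primary tumours. C1qa, the A chain, was measured at 341, 228, 275 and 265 CPM in the 4 Pax8-BPR GEMM tumours. The oviducts had 39.3, 47.0 and 49.4 CPM and the ovaries 46.8, 36.4 and 35.8 CPM. All 4 Pax8-BPR primary tumours stood above all 6 normal libraries. Ad-BPR GEMM tumours had 143 and 93.8 CPM of C1qa, and Ad-BPR allografts 152, 255, 152 and 164 CPM. Pax8-BPR allografts had 135 and 60.0 CPM. All 12 tumours of these models were above every normal library, and allograft 2 of the Ad-BPR model stood alone at the top of its group. In Ovgp1-BPR tumours C1qa was 122, 52.0 and 32.3 CPM in the GEMM and 73.9, 57.3 and 213 CPM in the allografts. In OSE-BPR it was 56.2, 33.3 and 14.2 CPM in the GEMM and 27.5, 40.3, 28.6, 19.8 and 32.2 CPM in the allografts. In OSE-BPR 6 of the 8 tumours lay below all normal libraries, and the Ovgp1-BPR tumours lay on both sides, with the pair of libraries that stood apart at the top. Per length, in TPM (transcripts relative to the library's total), the C1qa to C1qb ratio was 0.90 to 1.36 over all 32 libraries with a median of 1.18, and the C1qa to C1qc ratio 0.913 to 1.64 with a median of 1.33. The level of C1qa ran from 14.2 to 341 CPM over the same libraries.

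Csf1r, the receptor itself, was high in the same models, with Pax8-BPR primary tumours and Ad-BPR allografts overlapping at the top. It was 291, 137, 277 and 268 CPM in Pax8-BPR GEMM tumours, 165 and 124 CPM in Ad-BPR GEMM tumours and 171, 304, 298 and 265 CPM in Ad-BPR allografts. Pax8-BPR allografts had 147 and 50.1 CPM, of which the second lay among the normal libraries. Oviducts had 39.2, 66.3 and 59.0 CPM and ovaries 62.5, 39.4 and 28.9 CPM, and 11 of the 12 Ad-BPR and Pax8-BPR tumours were above all of them. In Ovgp1-BPR tumours Csf1r was 110.5, 39.5 and 31.2 CPM in the GEMM and 38.2, 27.6 and 171 CPM in the allografts. In OSE-BPR tumours it was 70.3, 28.0 and 13.1 CPM in the GEMM and 30.6, 60.4, 22.7, 19.7 and 33.7 CPM in the allografts. These ranges overlapped the normal range of 28.9 to 66.3 CPM in both models.

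Adgre1, the F4/80 gene, had a lower median level per length than the C1q genes, Csf1r and Cd68 in all 10 groups, with 4.64 TPM in oviducts and 32.3 TPM in Pax8-BPR GEMM tumours. In CPM it was 4.38, 11.1 and 9.19 CPM in oviducts, 14.4, 6.86 and 8.16 CPM in ovaries and 38.4, 49.7, 55.9 and 56.8 CPM in Pax8-BPR GEMM tumours. Over all 12 Ad-BPR and Pax8-BPR tumours it ran from 11.9 to 74.9 CPM with a median of 35.1, above all oviducts in each. The 8 OSE-BPR tumours ran from 2.99 to 11.0 CPM, and 3 of them were below all normal libraries. Cd68, the lysosomal marker, was 166, 68.7, 80.6 and 82.0 CPM in Pax8-BPR GEMM tumours, where 1 tumour stood above the others. Ad-BPR GEMM tumours had 62.3 and 41.1 CPM of Cd68, oviducts 24.3, 13.7 and 22.9 CPM and ovaries 38.0, 27.1 and 21.9 CPM. All 12 Ad-BPR and Pax8-BPR tumours, at 29.0 to 166 CPM, exceeded the 3 oviducts in Cd68, and all 8 OSE-BPR tumours lay below the 3 ovaries.

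**Figure D1:**
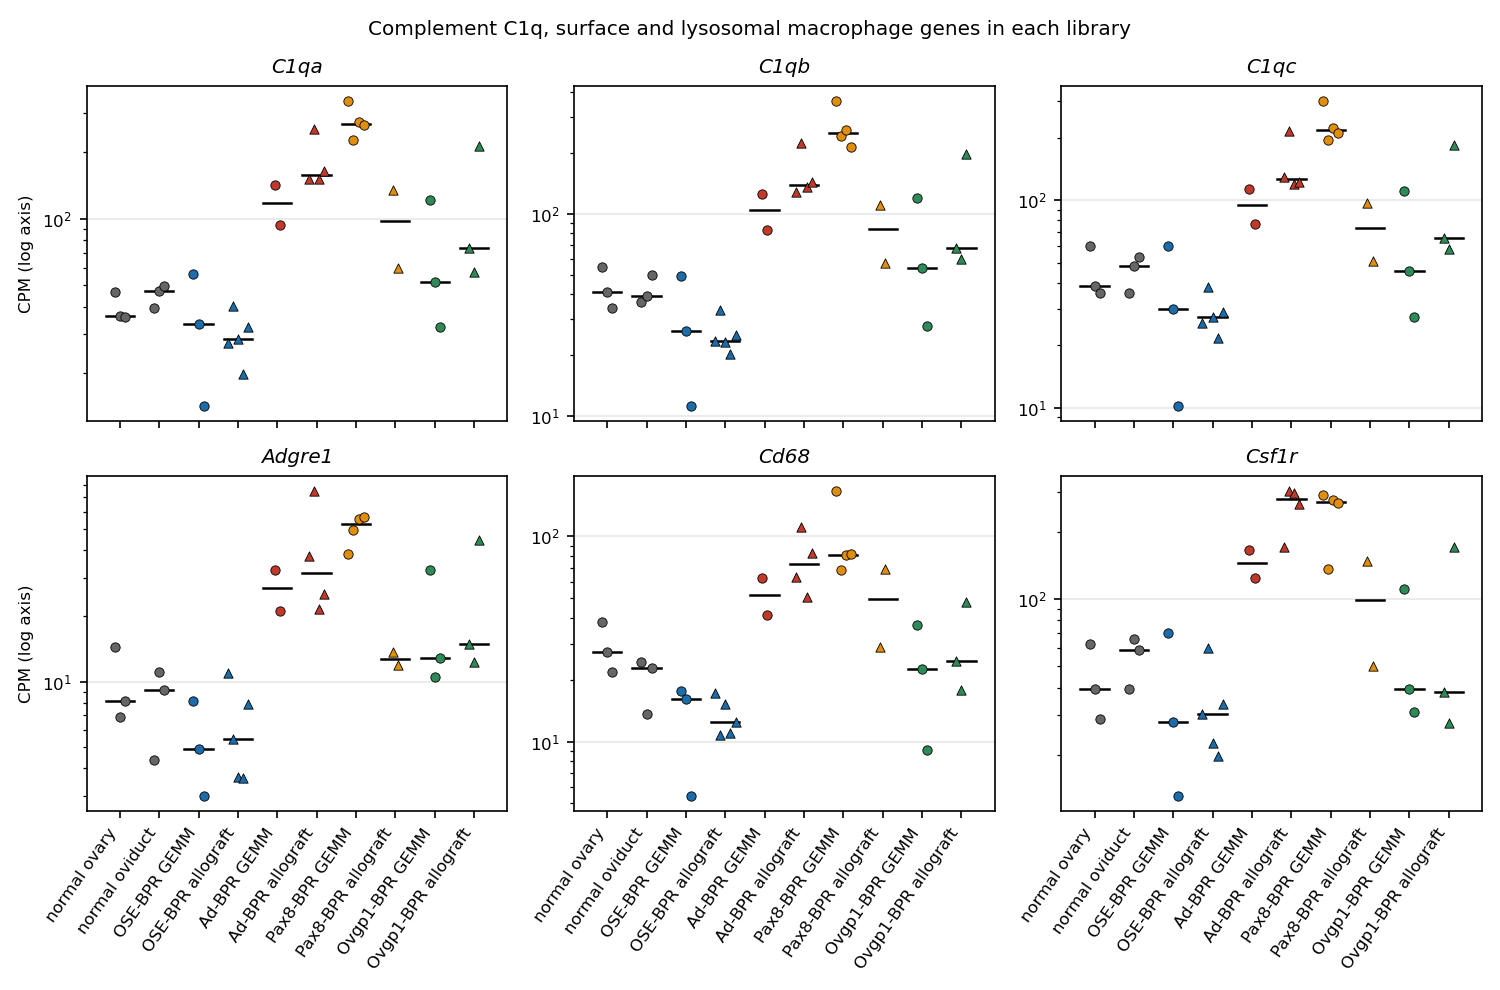
Levels of the C1q genes, Csf1r, Adgre1 and Cd68 in every library, in CPM on a log axis, by group (grey normal tissue, blue OSE-BPR, red Ad-BPR, orange Pax8-BPR, green Ovgp1-BPR). Circles are normal tissue or GEMM tumours, triangles are allografts and bars are group medians; for C1qa the 12 Ad-BPR and Pax8-BPR tumours sit between 60.0 and 341 CPM, above the normal range of 35.8 to 49.4 CPM.

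Primary tumours were compared with the tissue of their origin. Genes were called at an adjusted p under 0.05 (edgeR's quasi-likelihood test with Benjamini-Hochberg adjustment over all genes tested), and the share of all genes called is given for each comparison. The Pax8-BPR, Ad-BPR and Ovgp1-BPR comparisons share the same 3 oviducts and are not independent of each other. In Pax8-BPR GEMM tumours 7 of the 10 genes rose against oviduct and none fell, where 32.2% of all genes were called, 15.9% higher. C1qa rose from a mean of 45.2 to 277 CPM, 6.12-fold (log2 difference 2.61 ± 0.48 SE, adjusted p = 2.39e-04). C1qb rose by 2.68 ± 0.49 (adjusted p = 2.14e-04) and C1qc by 2.35 ± 0.50 (adjusted p = 0.00106) on the same scale. Adgre1 rose by 2.61 ± 0.56 and Cd68 by 2.29 ± 0.48 (adjusted p = 0.00107 and 9.00e-04). Csf1r rose by 2.15 ± 0.62 (adjusted p = 0.00995) and Spp1 by 3.88 ± 1.19 (adjusted p = 0.0146). Csf1 (1.07 ± 0.56), Trem2 (0.85 ± 0.62) and Mrc1 (0.28 ± 0.38) were not called, with adjusted p of 0.148, 0.297 and 0.603. The median of the 10 log2 differences was 2.32, against -0.009 over all genes tested. Without oviduct 1, Csf1r (adjusted p = 0.0503) and Spp1 (0.0674) were no longer called, and with oviduct 2 as the only oviduct, assumed to vary like the other groups, 4 of the 7 calls were left and the Csf1r difference was 1.89 (adjusted p = 0.252). The 4 leukocyte markers, Ptprc (CD45) among them, all rose in this comparison too, and their sum was 183 to 255 CPM in Pax8-BPR GEMM tumours against 48.7 to 64.2 CPM in oviducts. None of the 4 was without counts. Of 8 neutrophil markers 5 rose and of 6 markers of B and plasma cells 4 rose. The part of these cells in the result was not tested.

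In Ad-BPR GEMM tumours, with 2 libraries, Adgre1 and Spp1 were called against oviduct, both higher, where 24.1% of all genes were called and 11.7% were higher. Adgre1 rose by 1.70 ± 0.61, from 8.21 to 26.8 CPM (adjusted p = 0.0421). That call was lost on leaving out either Ad-BPR tumour, oviduct 1 or oviduct 3 (adjusted p up to 0.208). C1qa (1.38 ± 0.52), C1qb (1.31 ± 0.52) and Cd68 (1.35 ± 0.53) had adjusted p of 0.0528, 0.0688 and 0.0639 and Csf1r (1.40 ± 0.68) of 0.132. When the fit held only the groups of this comparison, 7 of the 10 genes were called, and so were 47.2% of all genes.

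In Ovgp1-BPR GEMM tumours none of the 10 genes was called against oviduct by edgeR, although 32.6% of all genes were. At an unadjusted p under 0.05, 3 of the 10 passed, against 43.1% of all genes, and limma on TPM called none and DESeq2 called 1, Mrc1 (log2 difference -1.03, adjusted p = 0.0379). By edgeR Mrc1 differed by -0.998 ± 0.41 (adjusted p = 0.0608), Trem2 by -1.41 ± 0.66 (adjusted p = 0.104) and Adgre1 by 1.18 ± 0.56 (adjusted p = 0.105). Without Ovgp1-BPR GEMM 1, one of the libraries that stood apart, Trem2 was called lower (-2.42, adjusted p = 0.0151). Averaged over the 3 models of oviduct origin with equal weight, 6 genes rose and none fell, where 35.7% of all genes were called, 14.8% higher and 20.9% lower: Adgre1 by 1.83 ± 0.51 (adjusted p = 0.00641), C1qb by 1.56 ± 0.43 (adjusted p = 0.00658), and C1qa, C1qc, Cd68 and Spp1. The calls of C1qc (adjusted p up to 0.112), Cd68 (up to 0.112) and Spp1 (up to 0.119) ended on leaving out 1 library. C1qc lost its call without any 1 of the 3 oviducts or without Ad-BPR GEMM 1, Cd68 without oviduct 2 or 3, and Spp1 without Ad-BPR GEMM 2, oviduct 1 or oviduct 2. Without oviducts 1 and 3 together, Spp1 alone was called.

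OSE-BPR GEMM tumours were compared with the ovaries, from which they also differ in strain. Of the 10 genes 1 was called, Mrc1, which fell by 1.41 ± 0.41 in log2 units, from 28.0 to 10.6 CPM (adjusted p = 0.0152). In this comparison 23.2% of all genes were called, 11.6% lower. Without OSE-BPR GEMM 3 the Mrc1 difference was -1.14 (adjusted p = 0.0863) and without ovary 1 it was -1.21 (adjusted p = 0.0673). Cd68 (-1.15 ± 0.49, adjusted p = 0.0881), Spp1 (-2.19 ± 1.13, adjusted p = 0.167) and C1qa (-0.20 ± 0.47, adjusted p = 0.806) were not called.

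**Figure D2:**
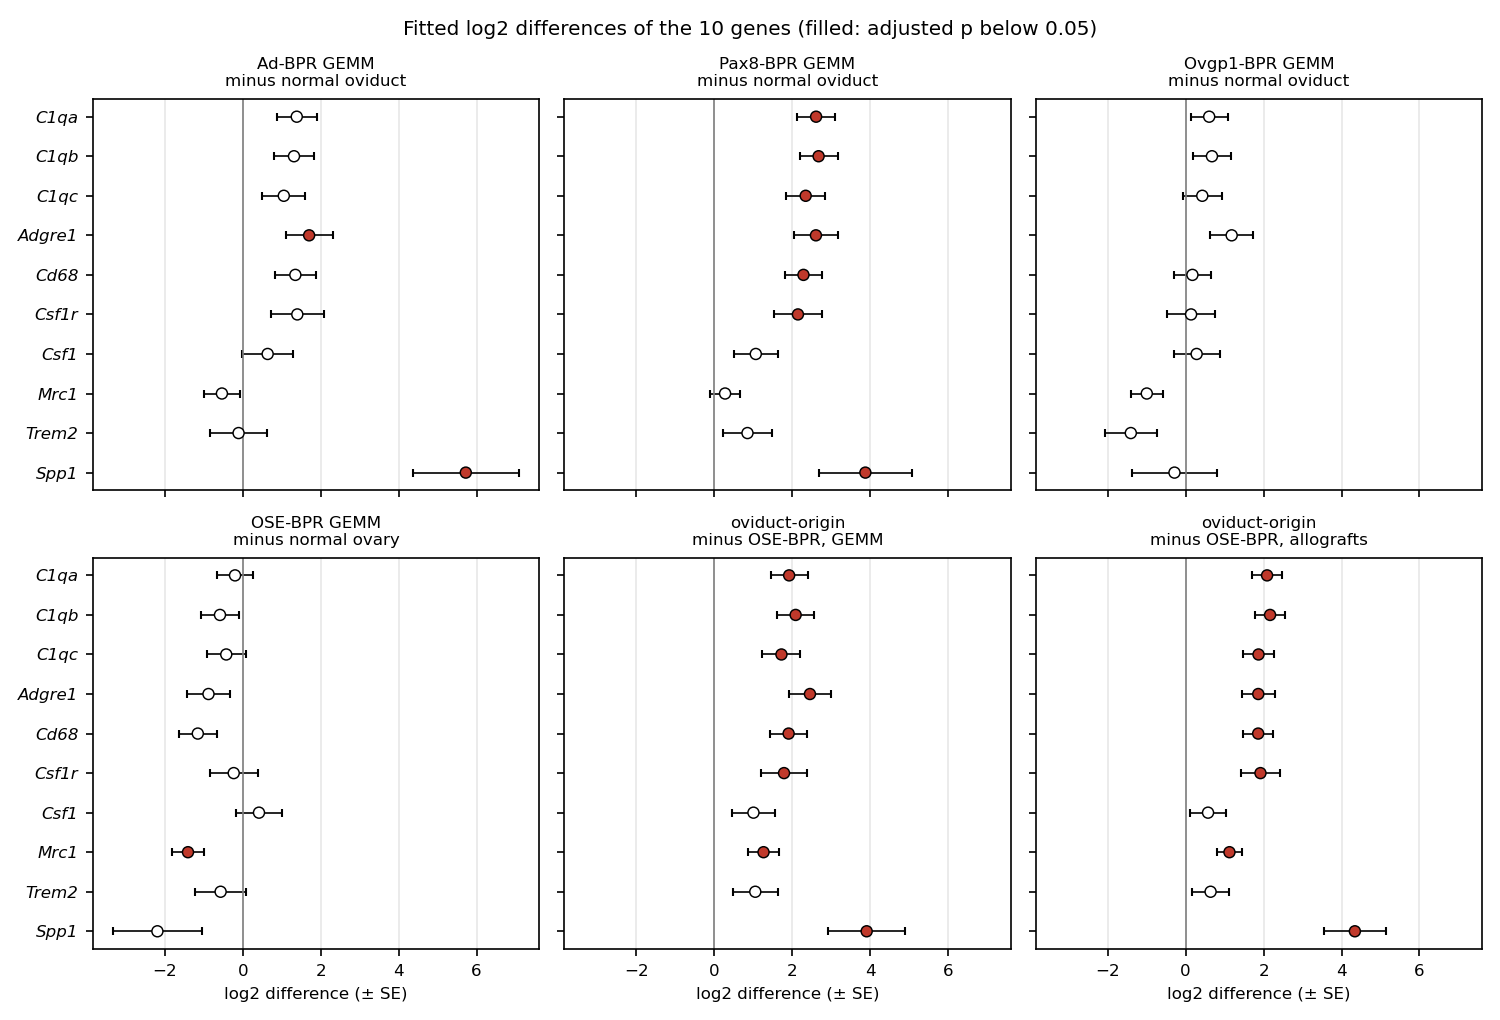
Log2 differences of the 10 genes, with standard errors as bars, for the comparisons of primary tumours with normal tissue and between models. In the Pax8-BPR comparison with oviduct Spp1 (3.88) and the C1q genes (2.35 to 2.68) are to the right of 0, and in the OSE-BPR comparison with ovary Mrc1 (-1.41) is to the left.

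Models were compared with each other in the 26 tumours. Any difference among the 4 models was called for 9 of the 10 genes in GEMM tumours, where 37.2% of all genes were called, and for 8 in allografts, where 46.4% were. Csf1 was the gene not called in either (adjusted p = 0.253 and 0.239), and Trem2 was not called in the allografts (adjusted p = 0.261). Without Pax8-BPR GEMM 1, Trem2 was not called in the GEMM tumours either (adjusted p = 0.0667). Tumours of oviduct origin exceeded OSE-BPR tumours in the same 8 genes in GEMM and in allografts: Adgre1, the C1q genes, Cd68, Csf1r, Mrc1 and Spp1. Shares of genes called were 26% in GEMM (11.1% higher) and 37.8% in allografts (17.4% higher). C1qb was higher by 2.09 ± 0.48 in GEMM (adjusted p = 0.00355) and by 2.17 ± 0.39 in allografts (adjusted p = 2.58e-04). Csf1r was higher by 1.79 ± 0.60 in GEMM (adjusted p = 0.0326) and by 1.92 ± 0.49 in allografts (adjusted p = 0.00439). The 8 calls in allografts held on leaving out each allograft in turn. In GEMM, C1qc, Csf1r and Mrc1 lost theirs without OSE-BPR GEMM 3 (adjusted p = 0.0842, 0.168 and 0.131), C1qc and Csf1r without OSE-BPR GEMM 2 (0.0626 and 0.128), and Csf1r without Ad-BPR GEMM 1 (0.0583) or Ovgp1-BPR GEMM 1 (0.0523). All 4 leukocyte markers were also higher, at 6.41 to 37.6 CPM summed in OSE-BPR against 17.9 to 255 CPM in tumours of oviduct origin, and so were 5 of the 7 neutrophil markers tested in GEMM and 7 of 7 in allografts. Of 6 fibroblast markers 3 were higher in GEMM and 4 in allografts, and of 6 markers of B and plasma cells 4 in each. Ly6g, a defining neutrophil marker, had no count in any OSE-BPR tumour, and none in the Ovgp1-BPR GEMM tumours or the ovaries either. The part of these cells in the result was not tested, and strain and cell of origin cannot be told apart.

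Within the models of oviduct origin, Ovgp1-BPR was set against the mean of Ad-BPR and Pax8-BPR. In GEMM tumours 5 genes fell, where 22.7% of all genes were called, 10.2% lower. Spp1 was lower by far the most (-5.09 ± 1.07, adjusted p = 0.00285), followed by Trem2 (-1.78 ± 0.63, adjusted p = 0.0471) and Cd68 (-1.65 ± 0.48, adjusted p = 0.018). C1qa (-1.40 ± 0.48, adjusted p = 0.04) and C1qb (-1.32 ± 0.48, adjusted p = 0.0495) passed narrowly. On leaving out each of the 9 tumours in turn, the call of C1qb was lost in 8 cases, that of Trem2 in 6, of C1qa in 5 and of Cd68 in 3, and that of Spp1 in none. Without Ad-BPR GEMM 1, Ovgp1-BPR GEMM 2 or Ovgp1-BPR GEMM 3, Spp1 alone was called, and without Ovgp1-BPR GEMM 1 there were 8 calls, Adgre1, C1qc and Csf1r being added (Csf1r -2.41, adjusted p = 0.0214). In allografts Spp1 was the 1 gene called (-4.37 ± 1.03, adjusted p = 0.00517), where 22.3% of all genes were called, 8.6% lower. Leaving out Ovgp1-BPR allograft 3 added Cd68 (-1.56, adjusted p = 0.0372) and Csf1r (-2.32, adjusted p = 0.0137), whose difference with that library was -1.02 ± 0.60 (adjusted p = 0.227). Markers of several other cell types moved with the comparison of GEMM tumours. Ptprc was itself lower in Ovgp1-BPR (-1.74 ± 0.60, adjusted p = 0.0424). It was among 2 of the 4 leukocyte markers that were lower, beside 3 of the 7 neutrophil markers tested. Of 6 fibroblast markers 3 were lower and 1 higher, and their sum was 1017 to 1431 CPM in Ovgp1-BPR against 3323 to 8260 CPM in the Ad-BPR and Pax8-BPR GEMM tumours. Of 5 osteoclast markers tested 2 were lower, with sums of all 6 of 7.59 to 14.4 against 115 to 202 CPM. Neither sum overlapped between these groups, and the share of all genes without overlap was not counted. Of 6 epithelial markers 3 were lower, with overlapping sums of 702 to 2248 and 1817 to 8309 CPM. The sum of dendritic cell markers went the other way, at 45.3 to 59.6 CPM in Ovgp1-BPR against 14.8 to 37.6 CPM, with 1 of 6 tested called higher. Neither this sum nor the osteoclast sum is a measure of its cell type alone, as set out for Spp1 below. The part of these cells in the result was not tested.

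Csf1, a ligand of the receptor, was not called by edgeR in any comparison that involved tumours. It was 54.6, 63.4 and 44.0 CPM in oviducts and 29.8, 32.0 and 33.7 CPM in ovaries, without overlap, and it was the 1 gene of the 10 called between the normal tissues (log2 difference 0.84 ± 0.13, adjusted p = 0.00184). In that comparison 53% of all genes were called, 28.5% higher and 24.5% lower in oviduct. In Pax8-BPR GEMM tumours Csf1 was 129, 48.8, 136 and 139 CPM and in Ad-BPR allografts 147, 187, 39.2 and 35.8 CPM. In the first group 3 tumours were above the oviducts and 1 was within their range, and in the second 2 were above and 2 below. In OSE-BPR GEMM tumours it was 67.4, 41.7 and 18.4 CPM, of which 2 were above all ovaries and 1 below. Ovgp1-BPR GEMM tumours had 94.2, 81.4 and 21.3 CPM. The smallest adjusted p of Csf1 in comparisons with tumours was that of Pax8-BPR against oviduct (0.148).

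Il34, which encodes the second ligand and is not among the 10, went the opposite way in normal tissue. It was 2.82, 4.26 and 5.34 CPM in oviducts and 9.01, 14.5 and 9.75 CPM in ovaries (log2 difference -1.33 ± 0.29, adjusted p = 0.00749). Against oviduct, Il34 rose in Pax8-BPR GEMM tumours by 2.20 ± 0.55 (adjusted p = 0.00381) and in Ad-BPR GEMM tumours by 2.08 ± 0.61 (adjusted p = 0.016), and in Ovgp1-BPR it differed by 1.08 ± 0.56 (adjusted p = 0.141). Pax8-BPR GEMM tumours had 21.6, 3.42, 11.8 and 39.7 CPM of Il34, of which 3.42 lay within the oviduct range. Ad-BPR GEMM tumours had 14.9 and 20.2 CPM, above the oviducts. Il34 was not followed in runs with libraries left out. Between tumours of oviduct origin and OSE-BPR it was not called (-0.05 ± 0.48 in GEMM, adjusted p = 0.956). In TPM, which allows genes to be compared per length, the Csf1 to Il34 ratio was 2.73 to 4.94 in oviducts and 0.619 to 1.06 in ovaries. Tumours lay between 0.575 and 3.99. The Csf1 to Csf1r ratio was below 1 in all 12 Ad-BPR and Pax8-BPR tumours (0.113 to 0.892, median 0.498), in 1 of 8 OSE-BPR tumours (median 1.64) and in 2 of 6 Ovgp1-BPR tumours (median 1.33). In oviducts that ratio was 0.839 to 1.51 and in ovaries 0.494 to 1.27.

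**Figure D3:**
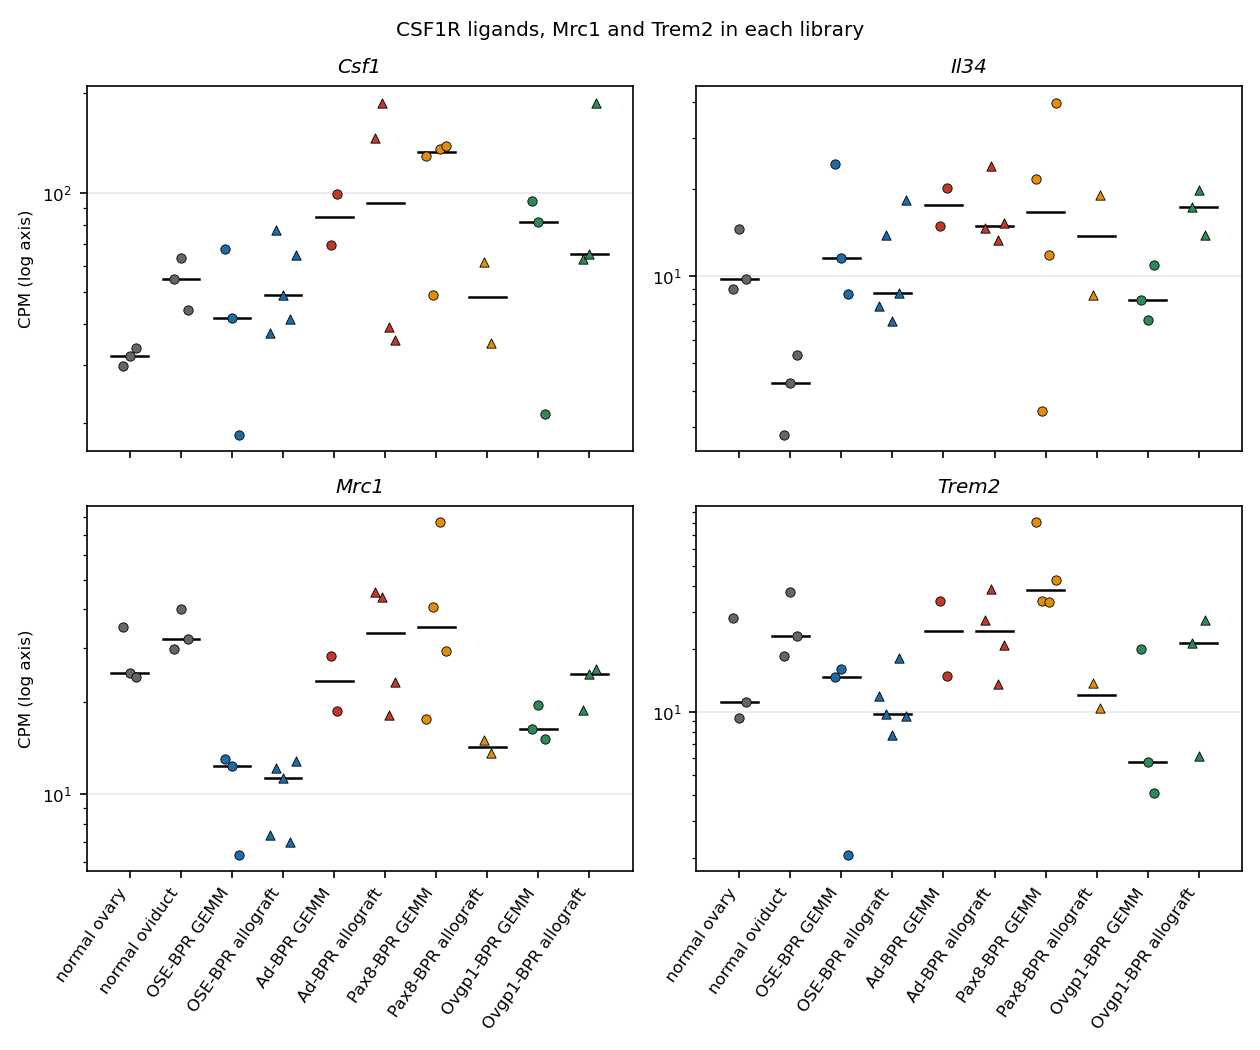
Levels of Csf1, Il34, Mrc1 and Trem2 in every library, in CPM on a log axis, with the colours and symbols of the plot of macrophage genes and bars at group medians. Mrc1 in the 8 OSE-BPR tumours is 6.35 to 13.0 CPM, below the normal range of 24.0 to 40.2 CPM, and Csf1 and Il34 are ordered oppositely in ovary and oviduct.

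Mrc1 and Trem2 were not called by edgeR against oviduct in any model. Mrc1, the mannose receptor, was 29.6, 40.2 and 31.9 CPM in oviducts and 35.0, 24.9 and 24.0 CPM in ovaries. In Pax8-BPR GEMM tumours it was 17.6, 40.8, 76.8 and 29.2 CPM and in Ad-BPR GEMM tumours 28.1 and 18.7 CPM. In OSE-BPR it was 13.0, 12.3 and 6.35 CPM in the GEMM and 7.34, 12.1, 11.3, 6.95 and 12.8 CPM in the allografts. Over all tumours, 22 of 26 lay below all 3 oviducts and 4, all of Ad-BPR or Pax8-BPR, lay above. All 8 OSE-BPR tumours lay below every normal library. Mrc1 was called in the comparison of OSE-BPR with ovary given above and between models, where tumours of oviduct origin were higher than OSE-BPR by 1.26 ± 0.39 in GEMM (adjusted p = 0.0203) and 1.12 ± 0.31 in allografts (adjusted p = 0.00804). Per length, the Mrc1 to Adgre1 ratio was 2.21 to 3.98 in oviducts and 1.32 to 2.26 in ovaries. It was below 1 in all 12 Ad-BPR and Pax8-BPR tumours (0.286 to 0.902), while Ovgp1-BPR tumours ran from 0.242 to 1.29, with 4 of 6 below 1, and OSE-BPR tumours from 0.479 to 2.31, with 1 of 8 below 1.

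Trem2, the lipid receptor, varied widely within groups. Oviducts had 18.6, 37.4 and 23.0 CPM, ovaries 27.9, 9.37 and 11.1 CPM and Pax8-BPR GEMM tumours 80.4, 33.7, 33.4 and 42.7 CPM, of which 2 lay within the oviduct range and 2 above it. All 8 OSE-BPR tumours, at 2.08 to 18.0 CPM, lay below the 3 oviducts. No comparison with normal tissue called Trem2, and its adjusted p against oviduct was 0.297 in Pax8-BPR and 0.104 in Ovgp1-BPR GEMM tumours. Tyrobp, the adaptor through which Trem2 signals, rose by 2.28 ± 0.52 in Pax8-BPR GEMM tumours (adjusted p = 0.00185), from 14.7 to 71.2 CPM. In TPM the Trem2 to C1qa ratio was 0.378 to 0.623 in oviducts, 0.228 to 0.498 in ovaries, 0.0772 to 0.213 in Ad-BPR and Pax8-BPR tumours, 0.0813 to 0.217 in Ovgp1-BPR tumours and 0.124 to 0.691 in OSE-BPR tumours. All 18 tumours of oviduct origin were below both normal tissues in this ratio, and the OSE-BPR tumours overlapped both.

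**Figure D4:**
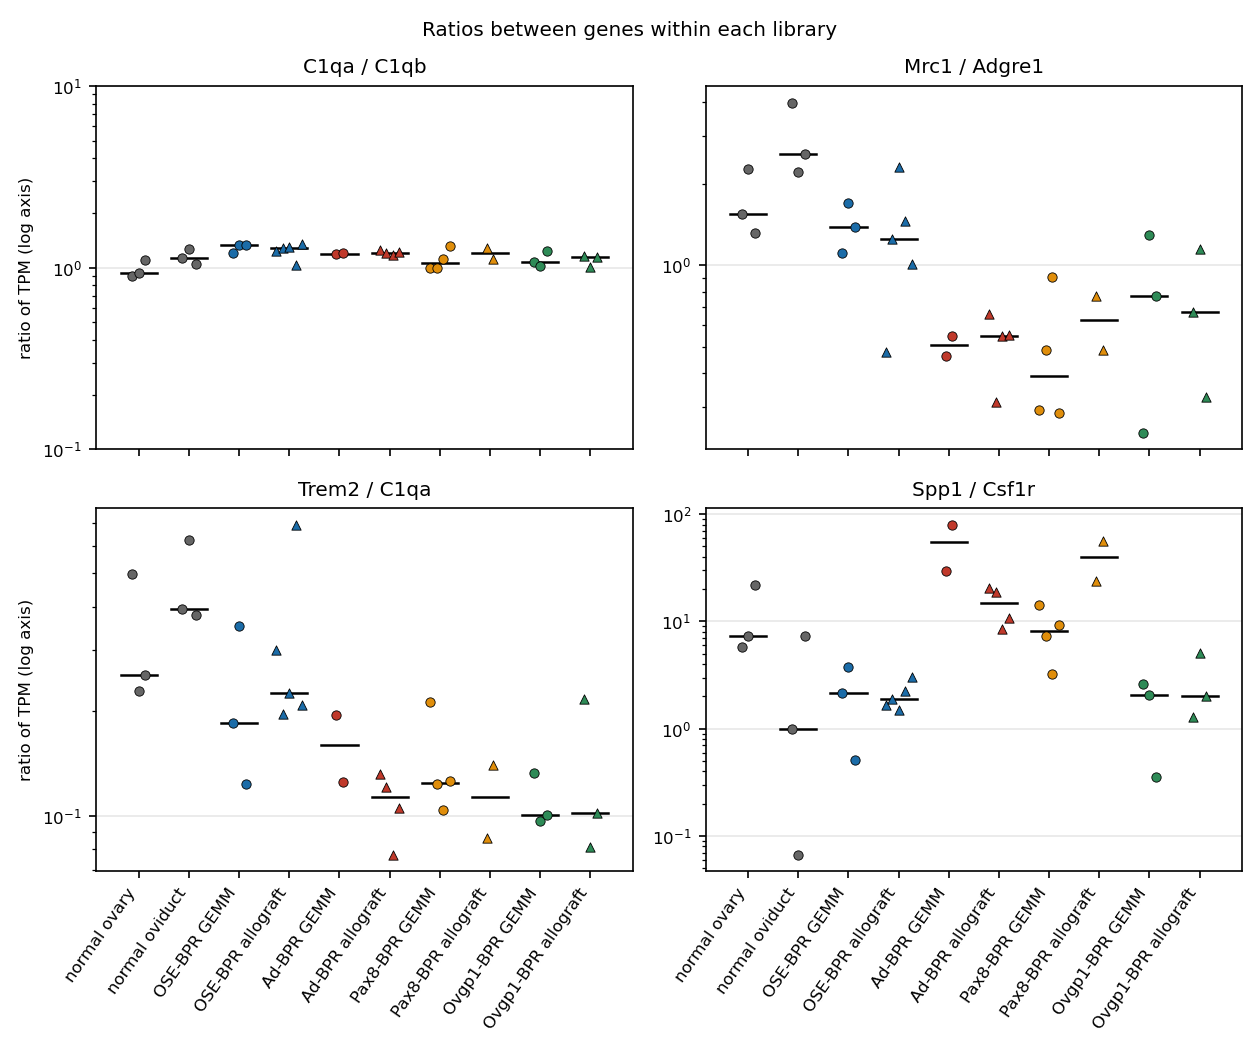
Ratios of TPM in every library, on log axes, for the pairs C1qa to C1qb, Mrc1 to Adgre1, Trem2 to C1qa and Spp1 to Csf1r, with the colours and symbols of the plot of macrophage genes and bars at group medians. The 12 Ad-BPR and Pax8-BPR tumours are below 1 for Mrc1 to Adgre1, and above 3 (3.26 to 80.0) for Spp1 to Csf1r.

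Spp1, osteopontin, had the widest range of the 10 genes. It was 1859 and 3755 CPM in Ad-BPR GEMM tumours and 1299, 2170.5, 1055 and 1153 CPM in Ad-BPR allografts. Pax8-BPR GEMM tumours had 1529, 325, 339.9 and 934 CPM and Pax8-BPR allografts 1419 and 1070.2 CPM. All 12 were above all other libraries, tumour or normal. Ovgp1-BPR tumours had 97.6, 29.0 and 3.97 CPM in the GEMM and 17.3, 46.6 and 129 CPM in the allografts. OSE-BPR tumours had 53.4, 35.5 and 2.20 CPM in the GEMM and 20.4, 38.1, 10.9, 14.0 and 35.9 CPM in the allografts. Together these 14 tumours ran from 2.20 to 129 CPM, with a median of 32.3, and overlapped the ovaries at 119, 94.2 and 203 CPM. The lowest value of the 12 Ad-BPR and Pax8-BPR tumours was 325 CPM. Oviducts had 13.1, 1.40 and 145 CPM, where luteal and steroid markers summed to 1451, 44.0 and 711 CPM in the same order. The part of ovarian transcripts in these Spp1 levels was not tested. Against oviduct, Spp1 rose 52.8-fold in Ad-BPR GEMM tumours (log2 difference 5.72 ± 1.36, adjusted p = 0.00416), a call kept on leaving out each of the 5 libraries. The size rested on oviduct 3: without it the difference was 8.60 in Ad-BPR (adjusted p = 0.000796) and 6.76 in Pax8-BPR (adjusted p = 0.00165), and with oviduct 2 alone 10.94 and 9.14. In the mean of the models of oviduct origin it was 5.98 without oviduct 3, against 3.10 ± 1.09 with it. Between oviduct and ovary the difference was -1.29 ± 1.21 (adjusted p = 0.403). With oviduct 2 as the only oviduct it was -6.55 (adjusted p = 0.000824), and Cd68 (-1.02, adjusted p = 0.0461) was then called too. Without ovary 1, Spp1 was not called and C1qa, Mrc1 and Trem2 were, while without oviduct 3 Spp1 was the gene added.

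Spp1 did not keep a constant proportion to the macrophage genes. The Spp1 to Csf1r ratio in TPM was 29.4 and 80.0 in Ad-BPR GEMM tumours, 8.49 to 20.7 in Ad-BPR allografts, 3.26 to 14.2 in Pax8-BPR GEMM tumours and 23.9 and 56.3 in Pax8-BPR allografts. The 4 Pax8-BPR GEMM tumours, the group with the highest median of C1qa, thus had a lower ratio than both Pax8-BPR allografts. The OSE-BPR and Ovgp1-BPR tumours ran from 0.354 to 5.10, the ovaries from 5.74 to 21.8 and the oviducts from 0.0671 to 7.38. Osteoclast markers, 6 genes of another cell type that makes Spp1, summed to 98.8 to 242 CPM in Ad-BPR and Pax8-BPR tumours, 32.1 to 77.3 CPM in OSE-BPR, 7.59 to 45.0 CPM in Ovgp1-BPR and 31.5 to 72.6 CPM in normal tissue. Calcr, the calcitonin receptor that defines osteoclasts, had counts in the OSE-BPR GEMM group only. It had none in any other group, tumour or normal, including the 12 tumours where the osteoclast sum was highest. The osteoclast sum is therefore not a measure of osteoclasts alone, and the part of each gene in it was not tested. Fibroblast markers summed to 3323 to 13100 CPM in the 12 Ad-BPR and Pax8-BPR tumours and to 240.5 to 2073 CPM in the other 14, and to 4725 to 7389 CPM in the oviducts. Dendritic cell markers went the other way, at 3.94 to 37.6 CPM in the 12 and 44.4 to 142 CPM in the 14. In OSE-BPR GEMM 3 their sum was 142 CPM, beside 6.41 CPM for the 4 leukocyte markers. Clec9a and Cd209a, among the dendritic cell markers, had no count in the OSE-BPR GEMM tumours. The sum is therefore not a measure of dendritic cells alone, and the part of each gene in it was not tested. Of the 11 marker lists, the osteoclast, fibroblast and dendritic cell sums did not overlap between the 12 and the 14, and the others did. The share of all genes without overlap between these tumours was not counted. Epithelial markers overlapped, at 1817 to 9671 CPM in the 12 and 574 to 4098 CPM in the 14. The part of these cells in the Spp1 levels was not tested. The receptors of osteopontin were compared too: of 9 genes, Cd44 rose by 3.35 ± 0.51 in Pax8-BPR GEMM (adjusted p = 2.37e-05) and by 3.38 ± 0.54 in Ad-BPR GEMM tumours (adjusted p = 9.41e-05) against oviduct, and the list had 3 genes higher and 0 lower in the first and 4 higher and 1 lower in the second, where 15.9% and 11.7% of all genes were higher and 16.3% and 12.3% lower.

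**Figure D5:**
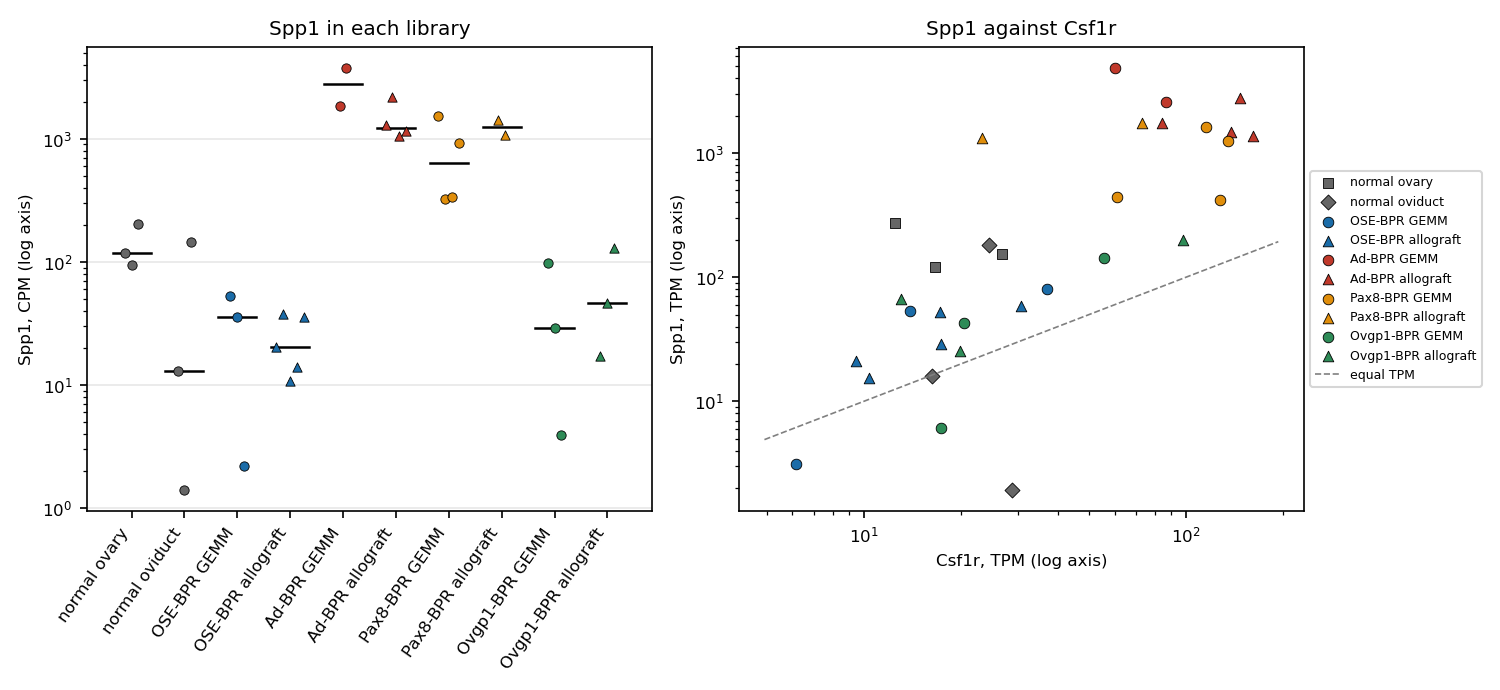
Spp1 in every library in CPM (log axis), with bars at group medians, and Spp1 against Csf1r in TPM (log axes; squares ovary, diamonds oviduct, dashed line equal TPM). The 12 Ad-BPR and Pax8-BPR tumours sit at 325 CPM or more and the other 14 tumours at 129 CPM or less.

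Allografts were compared with GEMM tumours within each model. No gene of the 20000 tested was called by edgeR in any of the 4 models, in their mean or in the test of a difference among models (0% in each). At an unadjusted p under 0.05 the counts were 1210 genes in the mean of the models, 457 in OSE-BPR, 352 in Ad-BPR, 2978 in Pax8-BPR, 419 in Ovgp1-BPR and 902 in the test among models. DESeq2 called 34, 11, 11, 722, 9 and 26 genes in these comparisons in the same order, and limma on TPM 0, 0, 0, 112, 1 and 1. Of the 10 genes 6 had an unadjusted p under 0.05 by edgeR in Pax8-BPR, where allografts had less Adgre1 (-1.98 ± 0.65, adjusted p = 0.185), C1qa (-1.51 ± 0.58, adjusted p = 0.244), Mrc1 (-1.53 ± 0.49, adjusted p = 0.182) and Trem2 (-1.97 ± 0.78, adjusted p = 0.248). Spp1 differed by 0.67 ± 0.97 there (adjusted p = 0.795). DESeq2 called Adgre1 (-1.97, adjusted p = 0.0339) and Mrc1 (-1.52, adjusted p = 0.0385) in that model. The difference between models had an unadjusted p under 0.05 for Adgre1, the C1q genes and Mrc1, with adjusted p of 1. Leukocyte markers summed to 183 to 255 CPM in Pax8-BPR GEMM tumours and to 77.1 and 40.8 CPM in Pax8-BPR allografts, and their part was not tested.

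Other genes of macrophages and of their growth factors were counted in lists. Neither the counts nor the genes named from the lists were followed in runs with libraries left out. For these counts the shares of all genes higher and lower were 15.9% and 16.3% in Pax8-BPR against oviduct, 11.7% and 12.3% in Ad-BPR, and 15.3% and 17.3% in Ovgp1-BPR. They were 14.8% and 20.9% in the mean of the models of oviduct origin, 11.6% and 11.6% in OSE-BPR against ovary, and 11.1% and 14.9% for tumours of oviduct origin against OSE-BPR in GEMM. Of 16 pan-macrophage genes, 15 rose and 0 fell in Pax8-BPR GEMM tumours against oviduct, with a median log2 difference of 2.72. In Ad-BPR it was 8 and 0, in Ovgp1-BPR 3 and 0, and for OSE-BPR against ovary 0 and 0. The count in Ovgp1-BPR was near the share of all genes. The scavenger receptor Msr1 rose by 4.12 ± 0.71 in Pax8-BPR (adjusted p = 1.05e-04) and by 2.16 ± 0.67 in Ovgp1-BPR (adjusted p = 0.016), and the lysosomal protease Ctss by 4.06 ± 0.75 in Pax8-BPR (adjusted p = 2.36e-04). Of 14 genes of the CSF family and of factors acting on Csf1r, 7 rose and 0 fell in Pax8-BPR, and 3 rose and 0 fell in Ad-BPR. Among these, Spi1, which encodes PU.1, rose by 2.22 ± 0.51 in Pax8-BPR (adjusted p = 0.00192) and Runx1 by 3.34 ± 0.46 in Ad-BPR (adjusted p = 1.43e-05). Of 12 genes of resident-type macrophages, 1 rose and 5 fell in the mean of the models of oviduct origin. Lyve1 fell by 2.53 ± 0.62 (log2 units, adjusted p = 0.00247), and Marco was higher by 4.36 ± 1.41 (adjusted p = 0.0177). Lyve1 is also made by lymphatic endothelium.

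Of 13 genes of lipid-associated macrophages and of Trem2 signalling, 8 rose and 0 fell in Pax8-BPR against oviduct. Gpnmb, a glycoprotein of lysosome-rich macrophages, rose by 3.30 ± 1.11 (adjusted p = 0.0256) and the galectin gene Lgals3 by 3.91 ± 0.77 (adjusted p = 4.46e-04). The lipase gene Lpl fell in Ad-BPR by 3.19 ± 0.73 (log2 units, adjusted p = 0.00297). Of 13 tested genes of macrophage activation, 11 rose and 1 fell in Pax8-BPR, among them the cytokine gene Il1b by 6.00 ± 0.98 (adjusted p = 5.80e-05). Neutrophil markers summed to 107 to 238 CPM in Pax8-BPR GEMM tumours and to 6.84 to 20.5 CPM in oviducts. Which cells made the genes of these lists was not tested. In Ovgp1-BPR the chemokine gene Cxcl10 rose by 7.65 ± 1.17, from a mean of 0.186 to 39.6 CPM (adjusted p = 3.24e-05). Of 7 monocyte genes, 6 were higher and 0 lower in tumours of oviduct origin than in OSE-BPR GEMM tumours, and 4 fell and 0 rose in OSE-BPR against ovary. Of 8 complement partners of C1q, 0 rose and 0 fell in Pax8-BPR against oviduct, where the C1q genes rose. In OSE-BPR against ovary C4b rose by 2.51 ± 0.84 (adjusted p = 0.0321).

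Across the 32 libraries, which share groups, model and depth, the log2 CPM of the C1q genes had pairwise Pearson r of 0.99 to 0.994. On deviations from group means the r was 0.977 to 0.984. C1qa and Csf1r had r = 0.946 over the libraries and 0.929 within groups. Spp1 and C1qa had r = 0.762 and 0.626, Csf1 and Csf1r 0.64 and 0.598, and Mrc1 and Spp1 0.397 and 0.062. Ptprc, the general leukocyte gene, had r = 0.946 with C1qa and 0.828 within groups. Among 12369 genes of at least 5 CPM on average, those most like Csf1r were Ncf1 (r = 0.945), Laptm5 (0.943), Tifab (0.942), Nes (0.937) and Spi1 (0.936). Those most like Csf1 were Trak1 (0.848), Trpm6 (0.816), Itgam (0.788), Cx3cr1 (0.783) and H6pd (0.777), and those most like Spp1 were Ptprn (0.945), Pmepa1 (0.91), Tnc (0.897), Lgals3 (0.893) and Il1rn (0.893). These are descriptions over libraries that fall into groups, and they carry no test.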

How the data were processed

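RNA of 26 tumours and 6 normal tissues was sequenced, and the authors deposited expected counts and TPM per gene. Per the submitters' processing notes, bcl2fastq, cutadapt 1.18, STAR 2.7.0f, RSEM 1.3.1 and Picard were used with mm10 (GRCm38). RSEM shares ambiguous reads among genes. The strand setting of the counting was not given in the sources used here, so antisense reads could be included. All 55450 gene identifiers matched GENCODE M21. Groups came from the sample labels, which name no batch.

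The deposited expected counts were rounded. Genes were kept by edgeR's filterByExpr (minimum count 10, total 15), leaving 17334 genes in the 6 normal libraries, 20000 in the 26 tumours and 20887 in all 32. Tests were edgeR's quasi-likelihood tests (edgeR 4.0.16, R 4.3.3) with TMM scaling and Benjamini-Hochberg adjustment over all genes of a fit, called at adjusted p under 0.05. Comparisons of tumours with normal tissue used all libraries, and those between tumours the 26. The deposited TPM served for ratios between genes and, as log2(TPM + 1), for limma 3.58.1. Correlations used log2 CPM with a prior count of 2. The other alternatives were DESeq2 1.42.0, RLE factors, no filter, smaller fits and left-out libraries, and the tests were tried on simulated data. The 10 genes and all lists were chosen with earlier results of these data known. Named list genes were the up to 3 of each list with the largest change among those called, with a mean of 5 CPM or more in a group. Among 39 pairs of libraries of 1 group none was a duplicate (chi-square per degree of freedom at least 10.9). The labels put an ovary and an oviduct in each of the 3 normal animals. The correlation of their deviations was -0.085, -0.044 and 0.06.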

Additional observations from a re-analysis of the deposited data

Results flagged for a closer look

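In 30 tests of single libraries against the rest of their group (10 genes in the 3 groups of 4 or 5 libraries), 6 values lay apart by Dixon's criterion at 95%, where chance gives about 1 in 20. Of these, 3 are the C1q genes of Ad-BPR allograft 2: C1qa at 255 CPM (others 152 to 164), C1qb at 224 CPM (others 129 to 143) and C1qc at 216 CPM (others 119 to 129). As these genes move together, they are 1 observation. In Pax8-BPR GEMM 1, Cd68 was 166 CPM (others 68.7 to 82.0). In Pax8-BPR GEMM 2, Csf1 was 48.8 CPM (others 129 to 139) and Csf1r 137 CPM (others 268 to 291), while C1qa there was 228 CPM and its epithelial markers summed to 1817 CPM against 5838 to 8309 CPM in the other 3.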

How the results depend on the processing

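No difference of the 10 genes that was called changed direction under any alternative run. Of 927 values for called genes, 864 kept their side of the threshold and 63 fell below it, and of 1913 values for genes not called, 38 passed it and 155 had another sign. Counts of the 10 genes called moved as follows, and where no cause is given it was not tested. Without a filter on low counts, which adds genes to the adjustment, Ad-BPR against oviduct gave 1 and Ovgp1-BPR minus mean of Ad-BPR and Pax8-BPR in GEMM gave 2. With limma on log2(TPM + 1), OSE-BPR against ovary gave 0 and Ad-BPR against oviduct 4. With only the groups of the comparison in the fit, Ad-BPR against oviduct gave 7, with 8483 genes called in all instead of 5033, and Ovgp1-BPR against oviduct 1, while Spp1 was no longer called in Pax8-BPR (adjusted p = 0.0763) or in the mean of the models of oviduct origin (0.0962). DESeq2 gave 1 for Ovgp1-BPR against oviduct and 2 for Pax8-BPR allografts against GEMM. Both chosen after seeing the data: without oviducts 1 and 3 the counts were 3 for normal oviduct minus normal ovary, 1 for the models of oviduct origin together, 1 for Ad-BPR and 4 for Pax8-BPR, and without the Ovgp1-BPR tumours that stand apart they were 1 for Ovgp1-BPR against oviduct, 8 for Ovgp1-BPR minus the other models in GEMM and 3 in allografts. Without oviducts 1 and 3, genes called in all were 2597 instead of 7463 for the models of oviduct origin together, 1485 instead of 5033 for Ad-BPR, 2301 instead of 6729 for Pax8-BPR and 2271 instead of 6811 for Ovgp1-BPR. Leaving out 1 library at a time gave 1 to 4 for oviduct minus ovary, 0 to 1 for OSE-BPR against ovary, 3 to 6 for the models of oviduct origin together, 1 to 2 for Ad-BPR, 5 to 7 for Pax8-BPR, 0 to 1 for Ovgp1-BPR, 8 to 9 among models in GEMM and 8 to 8 in allografts, 5 to 8 for oviduct origin minus OSE-BPR in GEMM and 8 to 8 in allografts, 1 to 8 for Ovgp1-BPR minus the other models in GEMM and 1 to 3 in allografts, and 0 for each comparison of allografts with GEMM. With the animal as a replicate block, oviduct minus ovary gave 1, Csf1, as without the pairing. Other tumour groups share no replicate numbers that the labels tie to an animal. With limma on TPM the median of all genes in oviduct minus ovary was -0.105 instead of 0.017, and 42.4% of calls were higher instead of 53.8%. Groups of 2 to 5 libraries limit every comparison. Spp1 in oviduct 2 and Trem2, Spp1 and Adgre1 in OSE-BPR GEMM 3 rest on under 50 counts.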
